A study of Mus musculus with 6 samples.

Results

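The genes described here are 10 genes that intestinal absorptive cells use to take up dietary fat and to export it as chylomicrons: Apob, Mttp, Apoa1, Apoa4, Apoc3, Apoc2, Creb3l3, Cd36, Fabp1 and Fabp2. They were chosen by name as a fixed set of genes, with earlier results of these data known, and all 10 were found by symbol among the 55298 Ensembl genes of the deposited count table. Chylomicrons are assembled in the endoplasmic reticulum of the enterocyte, where microsomal triglyceride transfer protein loads lipid onto apolipoprotein B. Fatty acids reach this pathway through the membrane and through cytosolic fatty acid binding proteins, and smaller apolipoproteins are added to the particle before and after secretion. CREB3L3 is a membrane-bound transcription factor of liver and small intestine that is known to activate several of these apolipoprotein genes.

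The libraries were total RNA from epithelial cells isolated from the small intestine of mice in the collagen-induced arthritis model, and both groups had this model. In one group, 3 libraries carried the strain label HIF2α +/- ΔIEC, and the series describes these animals as lacking HIF2α in the intestine. In the other, 3 libraries carried the strain label HIF2α +/- F/F littermate control, although their titles call them WT. The labels do not explain the +/-, and they give neither the promoter that drives the deletion nor the age, sex or diet of the mice. No label says that the libraries came from separate mice, so the p-values below measure the spread between libraries, which may be in part technical.

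Each library held between 28937122 and 38454620 counted reads. Epas1, the gene of HIF2α, was at 44.2, 25.9 and 31.9 CPM, counts scaled to the size of the library, in libraries 1, 2 and 3 labelled ΔIEC, against 12.2, 19.4 and 17.5 CPM in libraries 1, 2 and 3 labelled control. Without the correction described below, the log2 difference came to 1.06 (SE = 0.28, adjusted p = 0.0061, edgeR). Epas1 was thus higher with the ΔIEC label on a scale where 37.2% of all tested genes were called higher. On that scale this goes against a label of knockout, and no corrected value of Epas1 is given here. The groups are therefore called by their labels throughout, and every direction below rests on these labels. Gene counts cover the whole transcript, and the sources used here do not state which exons the deletion removes. Xist reads were at 0.437, 0.443 and 172 CPM in the ΔIEC-labelled libraries, against 51.9, 0.322 and 48.4 CPM in the control-labelled ones. Control-labelled library 3 also held 5.21 CPM of the Y-linked gene Eif2s3y, so results are given without it where that changes a call. The libraries also differed in GC content: the slope of log2 level on transcript GC content ran from -0.89 to -0.64 per 10% GC in the ΔIEC-labelled libraries, and from 0.44 to 0.96 in the control-labelled libraries. Each of the 10 genes is therefore given as TMM-scaled CPM and as CPM corrected in each library for transcript GC content and length. Levels of Epas1, Xist, Eif2s3y and Apobec1 and the sums of marker genes are TMM-scaled CPM without correction. Differences are log2 fold changes of ΔIEC-labelled over control-labelled libraries with their standard error (SE), from edgeR's quasi-likelihood test with Benjamini-Hochberg adjustment over all tested genes and a threshold of adjusted p below 0.05. They are also called log2 differences.

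Apoa1, Apoa4, Apoc3 and Creb3l3 were lower in the ΔIEC-labelled libraries both without and with the correction, and in all 4 the libraries of the groups did not overlap. Apob, the core protein of the particle, was called higher without and lower with the correction, and Mttp, which loads it with lipid, was called higher without it. Without correction 8 of the 10 genes were called in either direction, where 66.9% of all genes were. Of these 4 were called lower, against 29.7% of all 15143 tested genes, and 4 were called higher, namely Apob, Mttp, Fabp1 and Cd36, against 37.2% of all genes. With correction 5 were called in either direction, where 29.9% of all genes were. All 5 were lower, the same 4 and Apob, against 15.6% of 15135 tested genes, and 0 were called higher, against 14.3%. With correction the DESeq2 Wald test and limma-voom each called Mttp higher. At an unadjusted p below 0.05 the corrected edgeR test had 1 of the 10 genes higher, Mttp, and 5 lower. In either direction 6448 of all 15135 tested genes were below that p. The edgeR fits without and with correction both called 4 of the 10 genes lower, against 9.91% of all genes, and 0 higher, against 12.4%. Both calls also held without each library in turn for 3 genes that were lower, Apoa4, Apoc3 and Creb3l3, against 3.38% of all genes, and for 0 that were higher, against 5.71%. All 10 passed the filter on low counts. Their median log2 fold change was -0.20 without and -0.78 with correction, beside 0.15 and -0.02 for all tested genes. Libraries did not overlap between the groups for 7 of the 10 genes without correction, where 72.6% of all genes had this property, and for 6 of the 10 with it, where 47.9% had it. Of these, 4 were lower without correction, as were 33.6% of all genes, and 5 were lower with it, as were 25.0%.

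**Figure D1:**
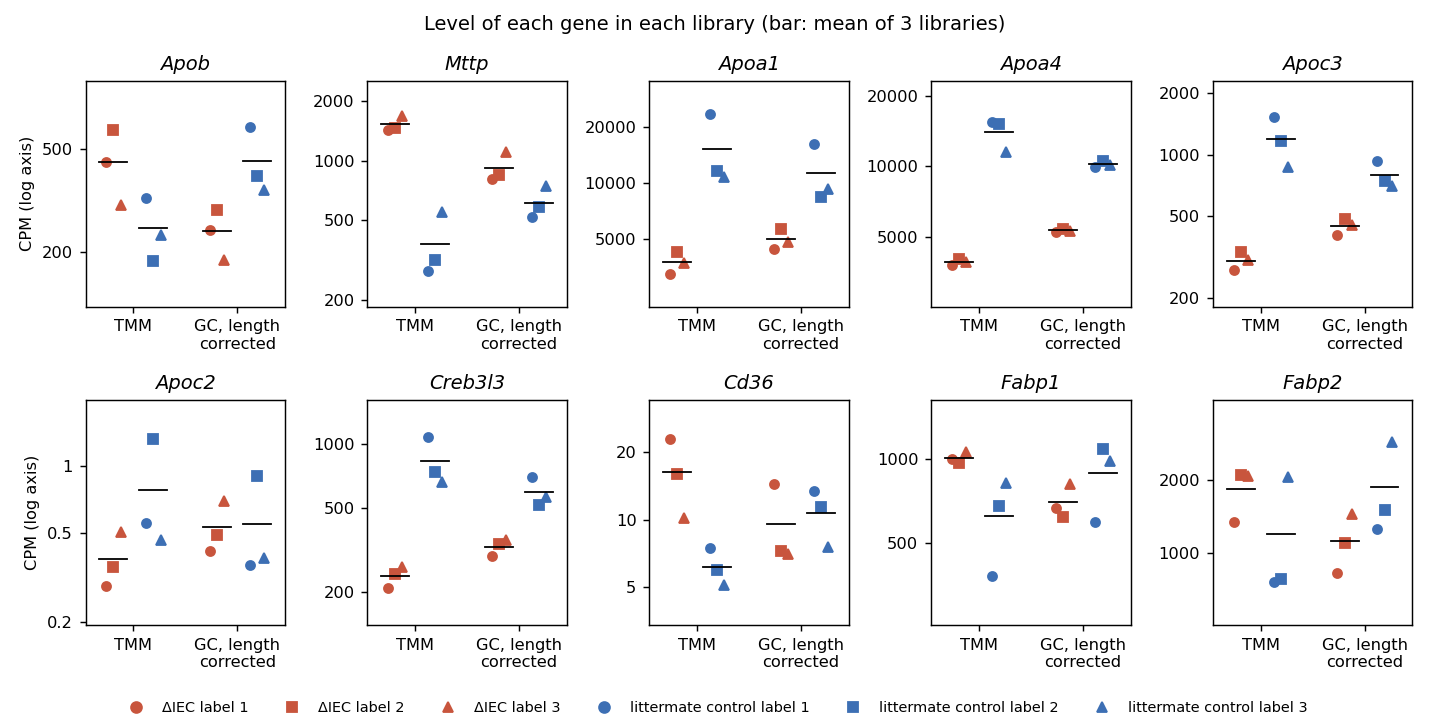
Level of each of the 10 genes in each library, in CPM on a log axis, scaled by TMM (left of each panel) and corrected for transcript GC content and length (right). Red symbols are libraries labelled ΔIEC, blue symbols libraries labelled littermate control, the symbol shape is the library's number within its group, and black bars are means of 3 libraries. In Apoa1, Apoa4, Apoc3 and Creb3l3 all red symbols lie below all blue ones on both scales, whereas in Apob the order of the groups turns round between the scales.

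Apoa1 encodes the main protein of high-density lipoprotein, which the intestine also places on new chylomicrons (gene ENSMUSG00000032083.8 at chr9:46228580-46230466, GRCm38, plus strand). Its level was 3284, 4282 and 3729 CPM in the ΔIEC-labelled libraries, against 23379, 11638 and 10806 CPM in the control-labelled libraries. Every ΔIEC-labelled library was below every control-labelled one, and control-labelled library 1 stood above the other 2 of its group. The log2 difference came to -2.02 (SE = 0.33, adjusted p = 0.00042, edgeR). Corrected levels were 4450, 5713 and 4830 CPM with the ΔIEC label and 16089, 8417 and 9275 CPM with the control label, which again did not overlap. The corrected log2 difference came to -1.17 (SE = 0.28, adjusted p = 0.015, edgeR). Without ΔIEC-labelled library 1 the corrected call was lost (-1.09, adjusted p = 0.059, edgeR), and it was also lost when the GC content and length of the longest transcript were used (-0.67, adjusted p = 0.087, edgeR). Over 16 alternatives of the corrected fit the adjusted p ran from 2.35e-07 to 0.087.

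Apoa4 encodes a lipid-binding apolipoprotein that is made mostly by the small intestine and secreted with chylomicrons (ENSMUSG00000032080.6, chr9:46240696-46243459, plus strand). It had 3796, 4028 and 3901 CPM in the ΔIEC-labelled libraries, against 15366, 15133 and 11541 CPM in the control-labelled libraries. The difference was -1.84 on the log2 scale (SE = 0.24, adjusted p = 0.0002, edgeR). Every ΔIEC-labelled library was below every control-labelled one. The corrected levels were 5255, 5424 and 5313 CPM with the ΔIEC label and 9928, 10491 and 10148 CPM with the control label. The corrected difference was -0.93 (SE = 0.19, adjusted p = 0.0072, edgeR). Exons of Apoa4 share 634 bases with Gm47528 and 632 bases with Gm10680, both annotated on the opposite strand, and the sources used here do not state whether counting was by strand.

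Apoc3 encodes an inhibitor of lipoprotein lipase and of the clearance of triglyceride-rich particles (ENSMUSG00000032081.10, chr9:46232933-46235636, minus strand). Its levels of 272, 334 and 306 CPM in the ΔIEC-labelled libraries lay below the 1525, 1168 and 873 CPM of the control-labelled libraries, a log2 fold change of -1.97 (SE = 0.26, adjusted p = 0.0002, edgeR). With correction the levels were 405, 483 and 451 CPM with the ΔIEC label, against 929.9, 745 and 706 CPM with the control label, and the groups stayed apart. The corrected log2 difference came to -0.83 (SE = 0.18, adjusted p = 0.0098, edgeR). Apoa4, Apoc3 and Creb3l3 were called lower under all 13 alternatives without and all 16 with correction, apart from the fit with the libraries' GC slope as a covariate, in which edgeR called 0 of all genes and 355 had an unadjusted p below 0.05. Of the 10 genes, that fit had 1 at an unadjusted p below 0.05, Fabp2.

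These 3 apolipoprotein genes are neighbours on chromosome 9. The gap between Apoa1 and Apoc3, which lies on the opposite strand, is 2466 bases, and that between Apoc3 and Apoa4 is 5059 bases. The genes on either side were called in neither fit. Sik3, which encodes a salt-inducible kinase and lies 4385 bases before Apoa1, had a log2 fold change of -0.21 (SE = 0.21) without and -0.09 (SE = 0.16) with correction. Apoa5, a plasma triglyceride regulator made by the liver, was under 1 CPM in every library and had -0.54 (SE = 0.46) and 0.70 (SE = 0.43). Zpr1, a zinc finger protein gene, had 0.44 (SE = 0.24) and 0.52 (SE = 0.18), with adjusted p = 0.12 and 0.055 (edgeR). The difference between the cluster and its neighbours was itself not tested.

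Creb3l3 encodes the transcription factor CREB3L3, also named CREB-H, which is released from the endoplasmic reticulum membrane by proteolysis (ENSMUSG00000035041.8, chr10:81084324-81098874, minus strand). It had 209, 243 and 261 CPM in the ΔIEC-labelled libraries, against 1085, 739 and 663 CPM in the control-labelled libraries. The highest ΔIEC-labelled library was well under the lowest control-labelled one, and the log2 difference came to -1.80 (SE = 0.25, adjusted p = 0.00023, edgeR). After correction the ΔIEC-labelled libraries were at 295, 336 and 351 CPM and the control-labelled ones at 696, 518 and 563 CPM. The corrected log2 difference came to -0.86 (SE = 0.18, adjusted p = 0.0084, edgeR). Over the 6 libraries the corrected log2 levels of Creb3l3 had Pearson correlations of 0.97 with Apoa1, 0.93 with Apoa4 and 0.99 with Apoc3. These are descriptions, since the groups differ in all 4 genes and the libraries' remaining distortions are shared.

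The promoter windows of the genes called lower in both ways are shown to let their letters be compared. They come from RefSeq on GRCm38.p6 and run from 250 bases before to 50 bases after an annotated start, 300 bases in all, each written 5′ to 3′ on the gene's strand. Capitals mark exact matches, on either strand, to 7 short motifs. These are the TATA box TATAAA, the HNF4 site core AAGTCCA, the nuclear receptor core AGGTCA, the core TGACG that CREB and ATF factors read, the hypoxia response cores ACGTG as well as GCGTG, which other bHLH factors also read, and the GATA factor site AGATAA.
Apoa1, chr9:46228380-46228679, plus strand: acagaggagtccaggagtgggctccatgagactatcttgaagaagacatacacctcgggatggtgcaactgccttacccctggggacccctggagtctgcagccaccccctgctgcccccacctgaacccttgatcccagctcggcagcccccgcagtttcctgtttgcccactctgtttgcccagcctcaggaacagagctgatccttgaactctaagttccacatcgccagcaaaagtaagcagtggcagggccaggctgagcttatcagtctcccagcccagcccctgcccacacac
Apoa4, chr9:46240594-46240893, plus strand: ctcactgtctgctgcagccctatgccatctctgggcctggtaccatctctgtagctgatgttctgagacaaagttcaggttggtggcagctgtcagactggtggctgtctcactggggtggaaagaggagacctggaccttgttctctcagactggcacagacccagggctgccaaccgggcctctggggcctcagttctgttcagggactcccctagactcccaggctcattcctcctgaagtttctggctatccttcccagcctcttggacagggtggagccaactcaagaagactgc
Creb3l3, chr10:81092542-81092841, minus strand: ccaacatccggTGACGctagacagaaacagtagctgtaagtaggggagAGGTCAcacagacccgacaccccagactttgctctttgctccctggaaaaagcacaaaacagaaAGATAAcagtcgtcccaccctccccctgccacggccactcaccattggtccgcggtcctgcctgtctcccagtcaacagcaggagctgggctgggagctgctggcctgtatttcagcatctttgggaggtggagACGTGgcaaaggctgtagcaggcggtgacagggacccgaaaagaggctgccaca
Creb3l3, chr10:81098823-81099122, minus strand: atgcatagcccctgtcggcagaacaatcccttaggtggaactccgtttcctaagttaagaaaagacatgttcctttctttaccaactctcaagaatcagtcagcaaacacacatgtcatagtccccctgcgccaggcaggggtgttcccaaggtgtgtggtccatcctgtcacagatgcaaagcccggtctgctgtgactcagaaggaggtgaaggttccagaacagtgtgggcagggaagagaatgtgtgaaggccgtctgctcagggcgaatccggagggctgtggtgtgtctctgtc
The Apoa1 and Apoa4 windows and the second Creb3l3 window held none of the 7 motifs, whereas the first Creb3l3 window held 4 of them. The 5′ end of the annotated Creb3l3 gene, at 81098874 on the minus strand, lies in the second window. The first window lies inside the gene. Among all 32851 windows of the same length, the CREB and ATF core TGACG was found in 20.8% and the nuclear receptor core AGGTCA in 16.3%. The GATA factor site AGATAA was found in 11.2% and the hypoxia response core ACGTG in 19.6%. A match describes letters only, and the lack of one says nothing about a factor's binding elsewhere. Windows were found for 9 of the 10 genes, not for Apoc3.

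Apob encodes apolipoprotein B, the structural protein that each chylomicron carries, in a truncated form made by mRNA editing in the intestine (ENSMUSG00000020609.14, chr12:7977648-8016835, plus strand). Its level was 446, 594 and 306 CPM in the ΔIEC-labelled libraries, against 324, 186 and 233 CPM in the control-labelled libraries. The groups overlapped, because ΔIEC-labelled library 3 was under control-labelled library 1. The log2 difference came to 0.86 (SE = 0.29, adjusted p = 0.02, edgeR). With correction the order turned round, to 245, 293 and 187 CPM with the ΔIEC label and 612, 396 and 349.8 CPM with the control label, with no overlap. The corrected log2 difference came to -0.91 (SE = 0.25, adjusted p = 0.025, edgeR).

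Neither call for Apob held under all alternatives. The higher call without correction was lost with DESeq2 size factors (0.66, adjusted p = 0.1002, edgeR), with the DESeq2 Wald test (0.66, adjusted p = 0.087) and without ΔIEC-labelled library 2, control-labelled library 2 or control-labelled library 3, with adjusted p of 0.11, 0.17 and 0.12 (edgeR). The lower call with correction was lost without ΔIEC-labelled library 1, ΔIEC-labelled library 3 or control-labelled library 1, with adjusted p of 0.077, 0.0597 and 0.0503 (edgeR). It was also lost with no filter on low counts, where the difference came to -0.28 (adjusted p = 0.39, edgeR). Correction for GC content alone gave -0.68 (adjusted p = 0.059, edgeR) and correction for length alone gave -0.01 (adjusted p = 0.97, edgeR), the highest of 16 alternatives, whose lowest was 0.0057. Apob has a median annotated transcript length longer than that of 99.6% of tested genes and a GC content of 43.5%, so that its corrected level is read from the end of the length range. Apob was thus called in opposite directions by the 2 fits, and no direction is given for it here.

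Mttp encodes the large subunit of microsomal triglyceride transfer protein, without which no chylomicron forms (ENSMUSG00000028158.14, chr3:138089854-138144968, minus strand). It was at 1423, 1462 and 1671 CPM in the ΔIEC-labelled libraries, against 277, 318 and 551 CPM in the control-labelled libraries. All ΔIEC-labelled libraries were higher, and the log2 difference came to 1.99 (SE = 0.29, adjusted p = 0.00025, edgeR). Corrected levels of 808, 842 and 1102 CPM with the ΔIEC label were still above the 523, 581 and 741 CPM with the control label. The corrected log2 difference came to 0.58 (SE = 0.21), and its adjusted p of 0.063 (edgeR) missed the threshold. Of 16 alternatives of the corrected fit 7 called Mttp higher, among them the DESeq2 Wald test (0.58, adjusted p = 0.038), limma-voom (0.49, adjusted p = 0.043) and the fit without control-labelled library 3 (0.74, adjusted p = 0.046, edgeR), and the adjusted p over these alternatives ran from 5.47e-05 to 0.18. Exons of Mttp share 457 bases with Trmt10a and 132 bases with Gm43691 on the opposite strand.

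The promoter windows of these genes, which differ from the group above in direction without correction, are shown in the same way.
Apob, chr12:7977427-7977726, plus strand: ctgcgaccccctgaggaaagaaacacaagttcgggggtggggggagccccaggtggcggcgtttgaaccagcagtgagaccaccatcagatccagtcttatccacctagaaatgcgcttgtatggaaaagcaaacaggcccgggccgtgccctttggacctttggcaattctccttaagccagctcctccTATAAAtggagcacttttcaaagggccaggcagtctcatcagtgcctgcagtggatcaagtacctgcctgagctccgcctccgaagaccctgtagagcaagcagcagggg
Mttp, chr3:138143369-138143668, minus strand: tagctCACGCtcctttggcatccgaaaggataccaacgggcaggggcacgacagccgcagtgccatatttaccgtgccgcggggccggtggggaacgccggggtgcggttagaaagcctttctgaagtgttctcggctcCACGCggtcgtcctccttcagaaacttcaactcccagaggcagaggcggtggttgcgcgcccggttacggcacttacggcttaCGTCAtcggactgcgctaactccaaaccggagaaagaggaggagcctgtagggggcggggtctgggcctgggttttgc
The Apob window held 1 TATAAA, present in 13.6% of all windows. The Mttp window held GCGTG on the opposite strand at 2 places, a motif found in 32.4% of all windows, and TGACG on the opposite strand once. This window lies inside the annotated Mttp gene, not at its 5′ end.

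Apoc2 encodes the activator of lipoprotein lipase, which is made mainly by the liver (ENSMUSG00000002992.17, chr7:19671579-19677941, minus strand). It was at 0.291, 0.355 and 0.504 CPM in the ΔIEC-labelled libraries, against 0.554, 1.32 and 0.466 CPM in the control-labelled libraries, so the groups overlapped. These are 12, 12 and 17 reads with the ΔIEC label and 16, 41 and 16 reads with the control label. The log2 difference came to -1.02 (SE = 0.50, adjusted p = 0.087, edgeR) without and -0.05 (SE = 0.47, adjusted p = 0.95, edgeR) with correction, and neither was called. Of the alternatives without correction, limma-voom called Apoc2 lower (-1.51, adjusted p = 0.0079), and the adjusted p over the 12 that tested it, apart from the GC slope as a covariate, ran from 0.0079 to 0.44. Exons of Apoc2 share 646 bases with Gm44805 on the same strand, so reads of the 2 genes may be split or dropped. Its neighbour Apoe, a ligand for the uptake of remnant particles, had -0.39 (SE = 0.35) and 0.85 (SE = 0.35) and was called in neither fit.

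Cd36 encodes a membrane protein that binds long-chain fatty acids (ENSMUSG00000002944.15, chr5:17781690-17888801, minus strand). It was a scarce transcript, with 22.8, 16.0 and 10.2 CPM in the ΔIEC-labelled libraries and 7.44, 5.96 and 5.09 CPM in the control-labelled libraries. The groups did not overlap and the log2 difference came to 1.41 (SE = 0.33, adjusted p = 0.0031, edgeR). The correction removed this difference: the libraries were at 14.4, 7.24 and 7.02 CPM with the ΔIEC label and at 13.3, 11.3 and 7.55 CPM with the control label. The corrected log2 difference came to -0.16 (SE = 0.34, adjusted p = 0.74, edgeR). Correction for length alone kept Cd36 higher (0.79, adjusted p = 0.043, edgeR), and it was not called in the other 15 alternatives with correction, whose adjusted p reached 0.99. Cd36 has the lowest GC content of the 10 genes, 38.7%, which is below that of all but 1.46% of tested genes.

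Fabp1 and Fabp2 encode the liver-type and the intestinal-type fatty acid binding protein, which carry fatty acids through the cytosol of the enterocyte (ENSMUSG00000054422.7, chr6:71199827-71205023, and ENSMUSG00000023057.5, chr3:122895072-122899506, both plus strand). Fabp1 was at 999, 964 and 1055 CPM in the ΔIEC-labelled libraries, all above the 383, 678 and 818 CPM of the control-labelled libraries, with a log2 fold change of 0.68 (SE = 0.28, adjusted p = 0.044, edgeR). That call was lost with DESeq2 size factors, with the DESeq2 Wald test and without any single ΔIEC-labelled library or control-labelled library 2, where the highest adjusted p was 0.1003. Its corrected levels of 668, 620.2 and 815 CPM with the ΔIEC label overlapped the 596, 1085 and 986 CPM with the control label, and the difference was -0.34 (SE = 0.24, adjusted p = 0.31, edgeR). Alternatives of the corrected fit called Fabp1 in opposite directions, lower with limma-voom (-0.56, adjusted p = 0.044) and higher with length alone (0.82, adjusted p = 0.02, edgeR), and the adjusted p over all 16 ran up to 0.83.

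Fabp2 was at 1343, 2099 and 2069 CPM in the ΔIEC-labelled libraries, against 760.1, 780.0 and 2057 CPM in the control-labelled libraries. Control-labelled library 3 stood with the ΔIEC-labelled libraries, and the log2 fold change of 0.62 (SE = 0.39, adjusted p = 0.18, edgeR) was not called. Without that library it was 1.19 (adjusted p = 0.0052, edgeR), and it was also called higher with no filter (0.62, adjusted p = 0.046, edgeR) and with limma-voom (0.97, adjusted p = 0.013). Over the 13 alternatives apart from the GC slope as a covariate, the highest adjusted p was 0.46. Corrected levels were 828, 1099 and 1451 CPM with the ΔIEC label and 1257, 1502 and 2852 CPM with the control label, a log2 fold change of -0.73 (SE = 0.33, adjusted p = 0.13, edgeR). In edgeR's test with correction for both GC content and length, none of the 3 uptake genes was called, and none of them had the same sign as without correction.

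**Figure D2:**
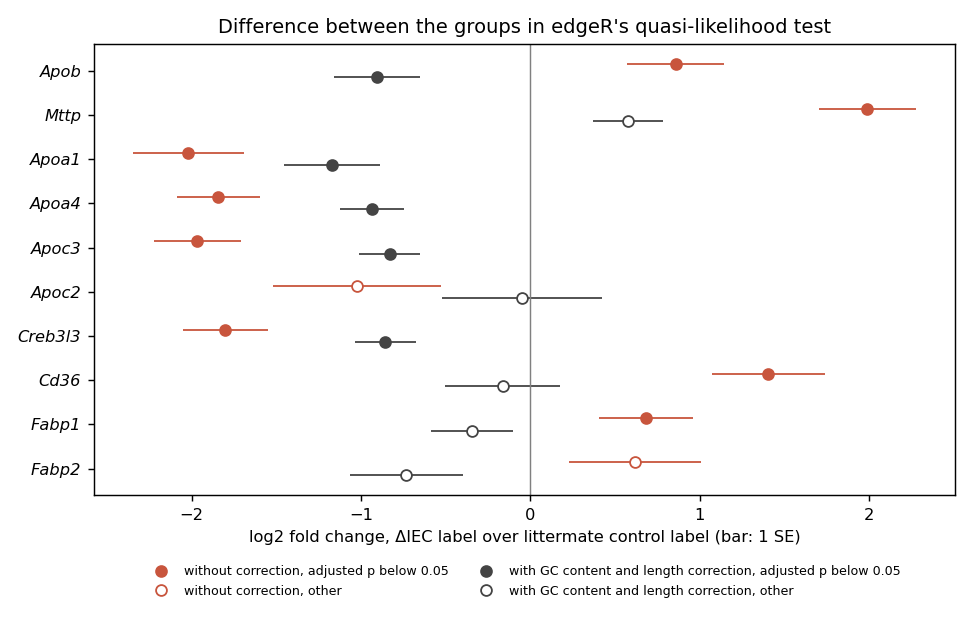
Log2 fold change of ΔIEC-labelled over control-labelled libraries for each of the 10 genes, with bars of 1 SE, without correction (red) and with correction for GC content and length (grey). Filled symbols have an adjusted p below 0.05 in edgeR's quasi-likelihood test. Apoa1, Apoa4, Apoc3 and Creb3l3 are filled and below 0 in both fits, while Apob is filled on opposite sides of 0.

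The signs of the uncorrected differences of the 10 genes split by GC content. The 5 genes with a positive difference had the 5 lowest GC contents, Cd36 38.7%, Fabp2 42.4%, Apob 43.5%, Fabp1 45.8% and Mttp 46.6%. The 5 genes with a negative difference lay between 55.5% (Apoa1) and 57.6% (Apoa4). None of the 10 lay between 46.6% and 55.5%, and within each set of 5 the differences were not in the order of GC content. Mttp had the highest GC content and the largest rise of its set, 1.99. Apoa1 had the lowest GC content and the largest fall of its set, -2.02. Across the 10 genes Pearson's r of GC content and log2 fold change was -0.90 without and -0.36 with correction, a description over genes measured in the same libraries. Over all tested genes the uncorrected log2 fold change was also lower at high GC content. Its median was 1.6 in the lowest GC decile and -1.23 in the highest, and with correction these medians were 0.10 and -0.10. Apoa1, Apoa4, Apoc3 and Creb3l3 were below the median of their GC decile in both fits, and so were Cd36, Fabp2, Apob and Fabp1. Mttp was above the median of its decile in both fits, and Apoc2 below it without and above it with correction. The correction takes out whatever tracks GC content or length across genes, and whether such a difference comes from the cells or from the libraries cannot be told apart here.

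**Figure D3:**
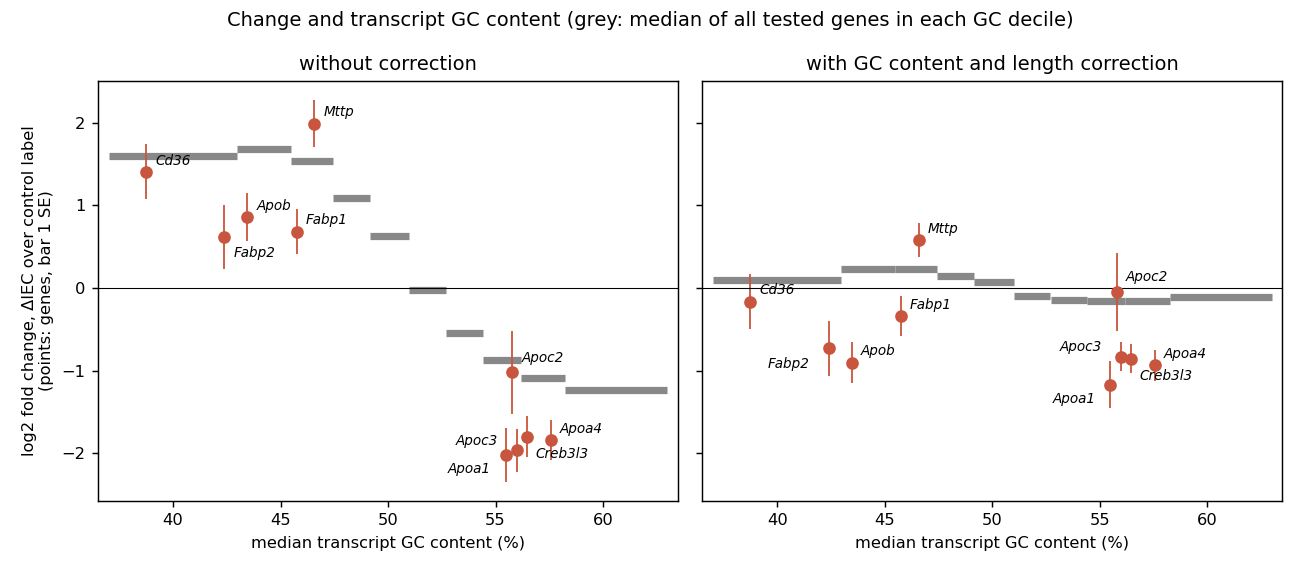
Log2 fold change of ΔIEC-labelled over control-labelled libraries (points, bars of 1 SE) against median transcript GC content in percent, without correction (left) and with it (right). Grey lines are medians of all tested genes in each GC decile, and the outermost lines are drawn only as far as the axis shows. On the left the points follow the fall of the grey lines from 1.6 to -1.23, and on the right Mttp, at 0.58, lies above its grey line by more than 1 SE.

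Levels per transcript length were compared as TPM, the measure of transcript abundance that divides counts by length within a library. It was computed from the counts and the union of a gene's exons and not corrected for GC content. Apoa1 was the most abundant of the 10 in both groups, at 9424 ± 1721 TPM with the ΔIEC label and 22664 ± 6854 TPM with the control label (SD, n = 3 each), which ranked 6th and 3rd among all genes. Apoa4 followed at 6662 ± 819 TPM with the ΔIEC label and 14620 ± 1692 TPM with the control label. Next by mean were the fatty acid binding protein genes, Fabp2 at 5830 ± 1244 TPM with the ΔIEC label and 2479 ± 1808 TPM with the control label, and Fabp1 at 5609 ± 481 TPM with the ΔIEC label and 2239 ± 1036 TPM with the control label. These 2 do not differ from each other beyond their spread, and with the ΔIEC label both also overlapped Apoa4, which had 6984, 7271 and 5731 TPM against 4646, 7127 and 5719 TPM for Fabp2. With the control label Apoc3, at 2187 ± 308 TPM, was also within the spread of Fabp1 and Fabp2. This depends on the length used: with the median transcript length Apoc3 was at 2334, 2123 and 1689 TPM in the control-labelled libraries, all above Fabp1 at 480, 1009 and 1297 TPM, while Fabp2 still overlapped it. By the union of exons, Apoc3 with the ΔIEC label was at 927 ± 139.7 TPM, below both.

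The lower part of the order held Mttp, Creb3l3, Apob, Cd36 and Apoc2. With the ΔIEC label Mttp (752 ± 29.5 TPM) was above Creb3l3 (242 ± 19.0 TPM) and Apob (102 ± 40.8 TPM). With the control label Creb3l3 (513 ± 60 TPM) was above Mttp (121 ± 61.2 TPM) and Apob (33.3 ± 5.97 TPM). Cd36 was at 14.5 ± 6.83 TPM with the ΔIEC label and 3.23 ± 0.171 TPM with the control label, and Apoc2 was last at 1.43 ± 0.229 TPM with the ΔIEC label and 1.85 ± 1.19 TPM with the control label. Together the 10 genes took 1.49, 1.64 and 1.48% of all counted reads in the ΔIEC-labelled libraries and 3.24, 2.67 and 2.54% in the control-labelled ones. Apoa1 and Apoa4 alone made up 0.897, 0.972 and 0.851% with the ΔIEC label, against 2.91, 2.33 and 2.06% with the control label. The other 8 genes summed to 0.597, 0.668 and 0.633% with the ΔIEC label and 0.328, 0.337 and 0.480% with the control label. These are shares of raw reads, without correction for GC content or length. With correction, Mttp was the only one of these 8 genes with a higher mean under the ΔIEC label (917 against 615 CPM). Fabp1 (701 against 889 CPM) and Fabp2 (1126 against 1870 CPM) turned to lower means, without a call.

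Ratios of 2 genes within a library do not depend on how libraries are scaled, and 8 were computed with an exact two-sided permutation test over libraries, whose smallest possible p is 0.10. The ratio of Apoa1 to Apob reads was 7.36, 7.21 and 12.2 in the ΔIEC-labelled libraries, against 72.2, 62.7 and 46.3 in the control-labelled libraries, a difference of -2.78 on the log2 scale (exact p = 0.10, adjusted over the 8 ratios 0.4). Every control-labelled library was above every ΔIEC-labelled one. With corrected levels the same ratio was 18.2, 19.5 and 25.8 with the ΔIEC label and 26.3, 21.3 and 26.5 with the control label, which overlapped (difference -0.23, exact p = 0.2, adjusted 0.53). Mttp over Apob compares 2 genes of similar GC content and was higher with the ΔIEC label on both scales. It was 3.19, 2.46 and 5.46 in the ΔIEC-labelled libraries and 0.856, 1.71 and 2.36 in the control-labelled ones by reads, a difference of 1.21, and the difference was 1.46 with corrected levels (exact p = 0.10 for each, adjusted 0.4 and 0.53). The groups did not overlap on either scale.

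Ratios among the genes that were lower in both ways did not separate the groups. By reads, the log2 ratio differed between the groups by 0.11 for Apoa4 over Apoa1, by 0.00 for Apoc3 over Apoa1 and by 0.06 for Creb3l3 over Apoa4. The groups overlapped in all 3 (exact p = 0.9, 1 and 0.9, adjusted 1 for each). With 3 libraries a group such a p does not show that the ratios were equal: the SD of these log2 ratios was up to 0.51 among the control-labelled libraries. The 3 remaining ratios, Apoc2 over Apoc3, Fabp1 over Fabp2 and Cd36 over Fabp2, differed by 1.03, 0.00 and 0.59 by reads, and their groups overlapped as well. With corrected levels the differences were 0.18 for Apoa4 over Apoa1, 0.29 for Apoc3 over Apoa1 and 0.085 for Creb3l3 over Apoa4 (exact p = 0.8, 0.2 and 0.6). For the 3 remaining ratios they were 0.89, 0.37 and 0.46, and the groups overlapped in all of these.

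**Figure D4:**
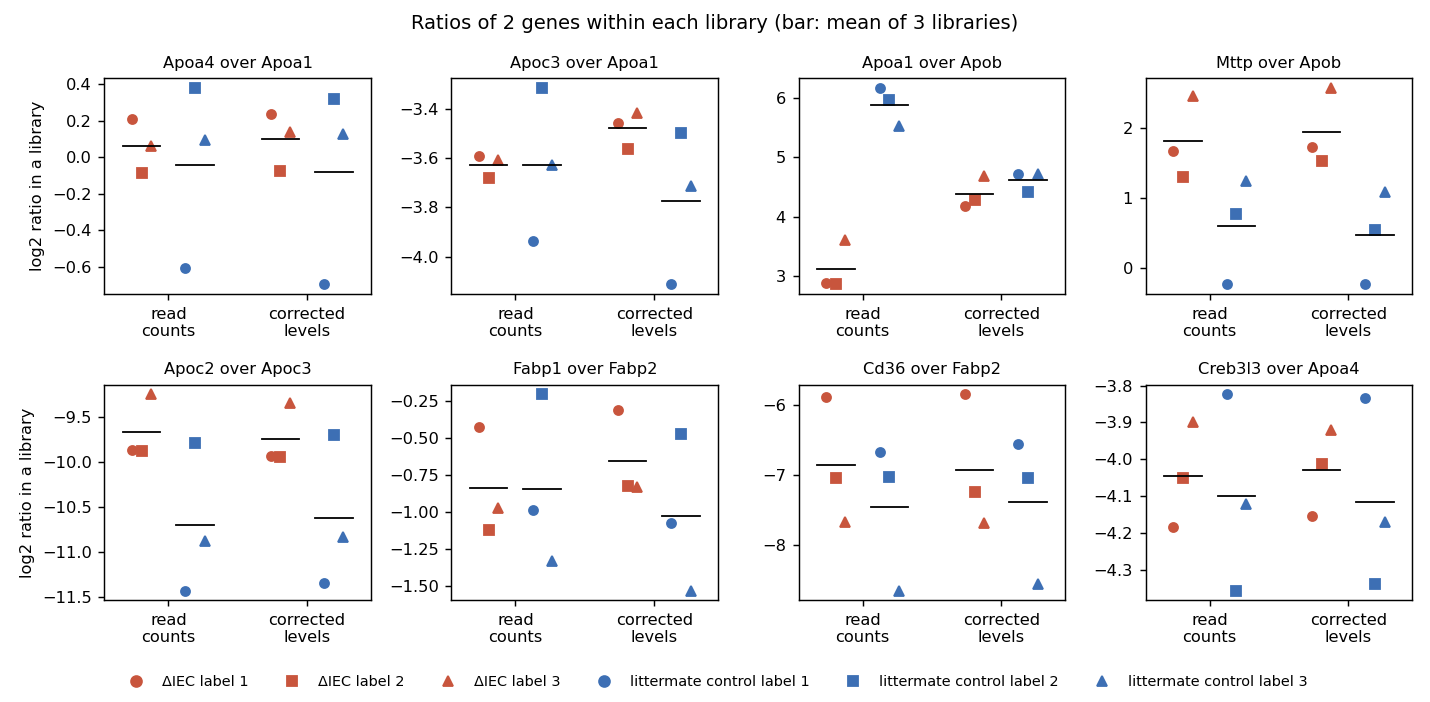
Log2 ratio of 2 genes in each library for the 8 ratios, from read counts (left of each panel) and from corrected levels (right). Red symbols are libraries labelled ΔIEC, blue ones libraries labelled littermate control, symbol shape is the library's number, and black bars are means of 3. Apoa1 over Apob is separated by -2.78 in read counts and overlaps in corrected levels, and Mttp over Apob is separated on both.

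Around these 10 genes, 7 lists of 63 other genes of fat absorption were counted, of which 56 were tested. Of the 56, 15 were called higher and 26 lower without correction (median log2 fold change -0.54), and 6 higher and 12 lower with it (median -0.20). Of all tested genes, 37.2% were called higher and 29.7% lower without correction, and 14.3% higher and 15.6% lower with it, and the counts of each list are to be read against these shares. Both fits called 11 of the 56 lower and 5 higher, where 9.91% and 12.4% of all genes were. Among the 7 uptake and activation genes 3 were higher and 1 lower in both fits. Acsl5, an acyl-CoA synthetase of the enterocyte, had log2 fold changes of 2.20 without and 1.25 with correction (SE = 0.29 and 0.23), and Slc27a2, a fatty acid transport protein with acyl-CoA synthetase activity, had 1.85 and 0.92 (SE = 0.31 and 0.22). Slc27a4, the main fatty acid transport protein of the small intestine, had -1.45 and -1.03 (SE = 0.27 and 0.24).

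Of the 7 triglyceride resynthesis genes 5 were lower and 1 higher without correction (median -1.37), and 2 lower and 0 higher with it (median -0.57). The 2 were Dgat1, which catalyses the last step of triglyceride synthesis (-1.37 and -0.69, SE 0.27 and 0.23), and Lpin3, a phosphatidate phosphatase (-0.99 and -0.51, SE 0.21 and 0.16). Of 13 tested assembly and secretion genes 6 were lower and 4 higher without, and 6 lower and 1 higher with correction, 5 of them lower in both. Pla2g12b, a phospholipase-like protein needed for lipoprotein secretion, had -1.50 and -1.30 (SE = 0.28 in both), and Cideb, a protein of lipid droplets and lipoprotein lipidation, had -1.34 and -0.92 (SE = 0.21 and 0.16). Apobec1, the enzyme that edits Apob mRNA, was higher in both fits, at 1.73 and 1.65 (SE = 0.39 and 0.34). Its levels were 34.1, 37.1 and 23.3 CPM in the ΔIEC-labelled libraries and 5.47, 6.99 and 16.0 CPM in the control-labelled ones, without overlap.

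Fewer genes of the other lists were called with the correction. Of 5 tested other apolipoprotein genes 1 was lower without and 0 with correction. Of 5 tested lipase, receptor and lipase inhibitor genes 4 and 1 were lower without and with correction, while 1 and 0 were higher. Of 13 transcription factor genes 6 and 2 were lower while 4 and 1 were higher. Angptl4, an inhibitor of lipoprotein lipase, was at -1.73 and -1.03 (SE = 0.29 and 0.26). Nr1h3, the gene of the sterol receptor LXRα, was at -1.42 and -0.55 (SE = 0.24 and 0.18), and Gata4, a factor of the proximal small intestine, at -1.20 and -0.57 (SE = 0.22 and 0.16). Among the 6 genes of the Creb3l3 family and of the proteases that activate it, Mbtps1, the site-1 protease, was higher in both fits at 0.70 and 0.82 (SE = 0.21 and 0.15), and no family member of Creb3l3 was called with the correction. All genes named with both values in the last 3 paragraphs passed the threshold of edgeR's test in both fits.

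**Figure D5:**
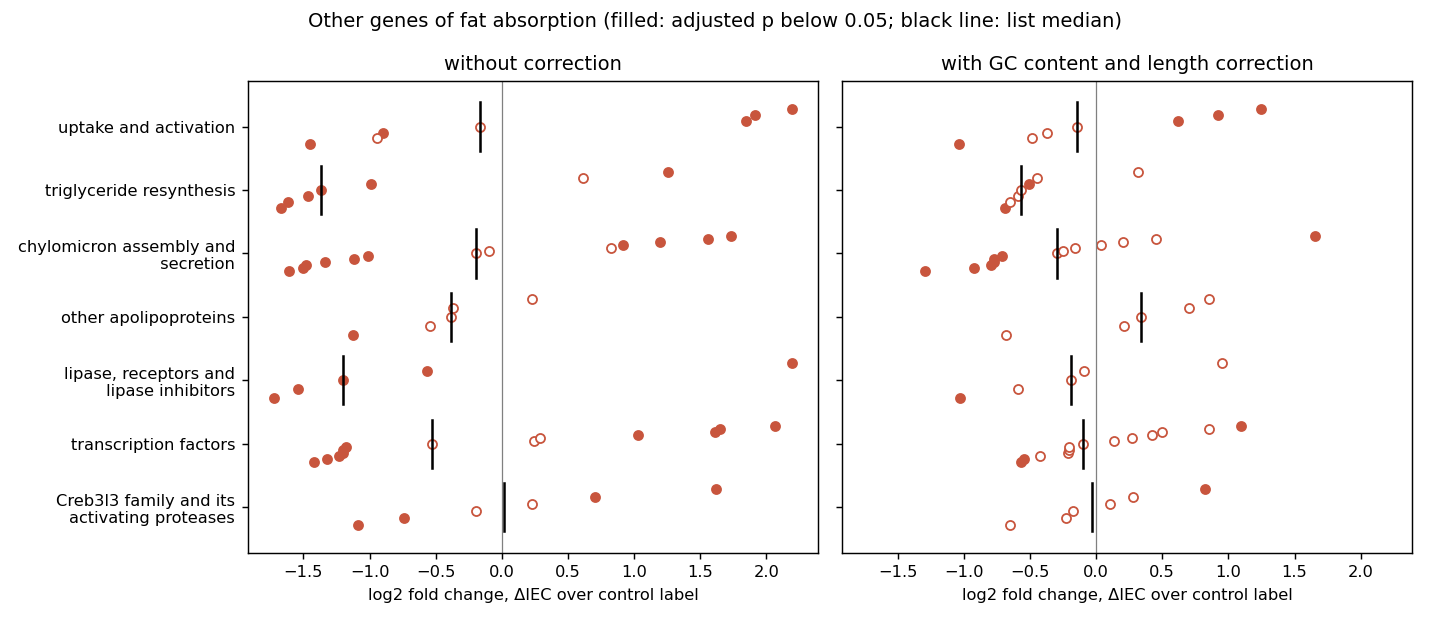
Log2 fold change of ΔIEC-labelled over control-labelled libraries for the other genes of fat absorption, by list, without correction (left) and with correction for GC content and length (right). Each point is a gene, filled where edgeR's adjusted p is below 0.05, and black lines are list medians. The filled points are fewer on the right, 6 above and 12 below 0, than on the left, 15 above and 26 below.

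In whole-epithelium RNA, fewer cells of a type and less RNA per cell cannot be told apart, so markers of the cells present were read beside the values above. The summed level of 8 enterocyte markers was 10394 to 13151 CPM in the ΔIEC-labelled libraries and 12765 to 16050 CPM in the control-labelled libraries, and with correction 2 of them were called higher and 2 lower. The 6 markers of crypt and proliferating cells summed to 1179 to 1352 CPM with the ΔIEC label and 222 to 393 CPM with the control label. They did not move together: 3 were called higher and 1 lower without correction (median log2 fold change 1.31). With correction 2 were called higher, 0 lower and 4 not called (median 0.03). The 2, Lgr5 and Olfm4, were called higher in both fits. The part of the crypt markers' difference in the lower apolipoprotein levels was not tested. Markers of the proximal small intestine summed to 808 to 1009 CPM with the ΔIEC label and 1049 to 1476 CPM with the control label, so that the sums did not overlap. The 5 proximal markers did not move together: 2 were called higher and 2 lower without correction (median log2 fold change 1.14), and 0 higher and 1 lower, Gata4, with it (median -0.05). Markers of the distal small intestine summed to 1782 to 3297 CPM with the ΔIEC label and 1934 to 2675 CPM with the control label. Leukocyte markers summed to 104 to 536 CPM with the ΔIEC label and 147 to 267 CPM with the control label. Markers of fibroblasts, muscle and endothelium summed to 8.81 to 13.6 CPM with the ΔIEC label and 5.78 to 8.05 CPM with the control label. Other tissues that make these apolipoproteins or these uptake proteins were represented by few reads. The 6 hepatocyte markers summed to 4.58 to 9.49 CPM with the ΔIEC label and 7.07 to 11.3 CPM with the control label. Ttr held most of these reads and was the one hepatocyte marker to pass the filter, with a log2 fold change of -0.53 (SE = 0.35, not called) without and -1.80 (SE = 0.41, adjusted p = 0.012, edgeR) with correction. Alb, the albumin gene, went the other way, with 52, 18 and 7 reads in the ΔIEC-labelled libraries and 2, 2 and 1 reads in the control-labelled ones. Adipocyte markers reached at most 0.0728 CPM in any library, with Lep and Adipoq at 0 reads. Exocrine pancreas markers were between 9.07 and 35.5 CPM with the ΔIEC label and between 14.7 and 32.8 CPM with the control label.

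For Apoa4 and for Apob, the other genes were ranked by how closely their corrected log2 levels followed it, among 8211 genes over the 6 libraries. Apoa4 and Apob themselves had a Pearson correlation of 0.81 on this scale, whereas Mttp ran against both, at -0.81 with Apoa4 and -0.95 with Apob. Apoa4 was followed most closely by Rhobtb2 (Pearson r 0.999), Rbm8a (0.999) and Cs (0.996), and 1131 of the ranked genes had r over 0.9. For Apob they were Plod1 (0.992), Usb1 (0.987) and Relch (0.983), and 423 had r over 0.9. So many genes share these patterns over 6 libraries of 2 groups that no gene is set apart by its likeness.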

How the data were processed

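The deposited table holds raw read counts per Ensembl gene, with 55298 genes in 6 libraries. Per the submitters' processing notes, the authors' tools included STAR 2.6.1c, Subread 1.6.1, cutadapt 1.18, SAMtools 1.8 and FastQC 0.11.8, on GRCm38 (mm10). The sources used here state no settings, strandedness or handling of multi-mapping reads, and overlapping or antisense genes are uncertain for that reason. The authors' size-factor scaled and regularised log values were not used.

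Gene names, positions, GC content and length (medians over annotated transcripts) came from GENCODE M21 on GRCm38, which matched 55117 identifiers, 54550 of them with their version. Mitochondrial genes were not analysed here. No pair of libraries agreed within sampling noise in a chi-square test of their counts, and the least distant pair differed by 76.8 per degree of freedom.

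Counts were tested in R 4.3.3 with edgeR 4.0.16 (filterByExpr with a minimum count of 10 and a minimum total of 15, TMM scaling, robust quasi-likelihood test, group as the one term, all 6 libraries). TMM factors were 1.27, 1.17 and 1.12 in the ΔIEC-labelled libraries and 0.75, 0.87 and 0.92 in the control-labelled ones. The filter kept 15143 genes. SE is the size of a log2 fold change divided by the square root of F. The correction was an offset for the 15135 genes with a GC value: log2 CPM (prior count 2) was centred on its mean over libraries, and natural splines with 6 degrees of freedom in GC content and 5 in log2 length were fitted to it library by library. This can enlarge, remove or turn a difference. The steps were run on simulated data with known changes in randomly picked genes, without and with the fitted GC and length trend. That run cannot show how the correction treats real changes that track GC content or length.

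The alternatives were DESeq2 1.42.0 (size factors, Wald test), limma 3.58.1 (voom with sample weights), total count scaling, scaling without the 10 genes and the 20 most abundant genes, no filter and a stricter filter (at least 1 CPM in 3 libraries), GC content or length alone, the GC slope as a covariate, and leaving out each library. Using the longest transcript's GC content and length was chosen after the data were seen. The 10 genes, the pathway and marker lists and the tests were chosen with earlier results of these data known. Named pathway genes were at most 3 of a list: those past the threshold in both fits, by size of the corrected change. Intervals and p-values cover the spread of 3 libraries a group only.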

Additional observations from a re-analysis of the deposited data

How the results depend on the processing

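Of the 10 genes, Apoa4, Apoc3 and Creb3l3 kept their lower calls under every alternative but the GC slope as a covariate, where edgeR called 0 genes of all higher and 0 lower, 0 of the 10 genes in either direction, and the log2 fold changes of Apoc2 (2.05), Mttp (-0.052), Fabp1 (-0.88) and Fabp2 (-2.77) had turned sign. That covariate separates the groups, with every ΔIEC-labelled library below every control-labelled one. No paired analysis was possible because the labels give no replicate numbers, which were assigned in accession order.

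Without correction, DESeq2 size factors and the DESeq2 Wald test each called 2 of the 10 genes higher in place of 4, and leaving out a library gave 2 to 4. Of all 15143 tested genes, DESeq2 size factors called 5293 higher and the DESeq2 Wald test 5267. Leaving out a library called 4875 to 5794 of all genes higher, with 15439 to 15710 tested. Total count scaling called 2660 of all genes lower and moved the median of all genes to 0.61, against 0.15 with TMM and 0.01 with DESeq2 size factors. The split of calls moved by more than 10 percentage points with it, to 6550 higher and 2660 lower, against 5636 higher and 4499 lower.

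With correction, 1 of the 10 genes was called higher with no filter, with the DESeq2 Wald test, with limma-voom, with GC content alone and with the longest transcript's values, and 3 with length alone. Leaving out a library gave 0 to 1 higher and 3 to 5 lower among the 10, and 1069 to 2025 higher and 1121 to 2290 lower among all genes. All genes called higher were 4138 of 27150 with no filter. Of 15135 genes, 2483 were called higher with the DESeq2 Wald test, 2976 with limma-voom and 2250 with GC content alone. The longest transcript's values gave 1936 higher and length alone 4671, and length alone called 5235 lower. Changes that turned sign were Apoc2 with the longest transcript's values (0.36) and without a library (-0.28 to 0.50), Fabp1 with no filter (0.075), length alone (0.82, called) and the longest transcript's values (0.12), Fabp2 with length alone (0.52), and Cd36 with no filter (0.48), length alone (0.79, called) and without a library (-0.57 to 0.033). The cause was not tested.

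Leaving out a library moved the log2 ratio from -0.18 to 0.32 for Apoa4 over Apoa1, from -0.15 to 0.16 for Apoc3 over Apoa1, from -0.24 to 0.32 for Fabp1 over Fabp2, from -0.0086 to 0.997 for Cd36 over Fabp2 and from -0.072 to 0.19 for Creb3l3 over Apoa4. The ratio stayed from -3.03 to -2.64 for Apoa1 over Apob and from 0.80 to 1.53 for Mttp over Apob.

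With the median transcript length in place of the union of exons, mean TPM was 5475 for Apoa1, 2568 for Apoa4, 2167 for Fabp1, 7.37 for Cd36 and 339 for Creb3l3 with the ΔIEC label. With the control label it was 14363 for Apoa1, 6104 for Apoa4, 929 for Fabp1, 1.8 for Cd36, 777 for Creb3l3 and 25.0 for Apob. With the ΔIEC label it was also 2249.7 for Fabp2, 587 for Mttp and 0.714 for Apoc2. Scarce transcripts are limited by depth: Apoc2 rests on 12 to 41 reads a library.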
